A study of Homo sapiens with 6 samples.

Results

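The cytosolic and mitochondrial chaperones and their regulators were followed as 40 genes, chosen by gene symbol and grouped by chaperone class, out of 29236 symbols in the expression table. They were chosen with earlier results of these data known. All 40 symbols had rows, 330 annotated transcripts in all, and the values of a gene's transcripts were added within each library. The samples were xenograft tumours grown from the human colorectal cancer cell line HT-29, with the genotype labelled WT. The control group received no treatment and the other group received extracorporeal shock waves, pressure pulses generated outside the body, at 60 mJ. All tumours were sampled at day 15, each group had 3 libraries, and all libraries carried the same batch label. The titles of the shock wave libraries also contain the abbreviation "con", so the groups follow the treatment label. Whether each library is a separate animal is not labelled. The p-values therefore reflect only how these samples spread, and that spread may be technical. The host animal is not given in the sources used here, nor is any removal of host reads.

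Chaperones bind unfolded protein chains and keep them from clumping while they fold. HSP70 proteins work in cycles of ATP use that J-domain proteins start and nucleotide exchange factors reset, HSP90 takes over partly folded clients such as kinases with the help of co-chaperones, and the ring-shaped chaperonins enclose a chain inside a chamber. After heat or other protein damage, the transcription factor HSF1 binds heat shock elements in the promoters of many of these genes, and many tumour cells hold high chaperone levels without an outside stress.

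A heat shock element is built from the unit GAA and its reverse complement TTC, placed in alternating directions with NN between them. The promoter windows of RefSeq (GRCh38.p14), from 250 bases before to 50 bases after each start site, were searched for the 8-letter forms GAANNTTC and TTCNNGAA. Each form is its own reverse complement, so both strands are covered. A window was available for 36 of the 40 genes, all except CCT6A, FKBP4, HSPA14 and HSF1. At least 1 of these forms stood in 19 of the 36 windows (52.8%), against 16.2% of 27305 symbols with a window. A run of 3 alternating units, in which both 8-letter forms overlap by 1 unit, stood in 8 of 36 windows (22.2%), against 0.608% of all symbols: HSPD1, HSP90AB1, DNAJB6, DNAJA1, SERPINH1, CHORDC1, HSPA8 and HSP90AA1. Of these genes, 4 from different chaperone classes are shown as examples, 5′ to 3′ on the strand of the gene, with the longest match in capitals. The stretch of HSPA8 lies at chr11:123062149-123062221 on the minus strand, that of HSP90AA1 at chr14:102087090-102087162 on the minus strand, that of HSPD1 at chr2:197500038-197500090 on the minus strand, and that of CHORDC1 at chr11:90223057-90223139 on the minus strand.
HSPA8: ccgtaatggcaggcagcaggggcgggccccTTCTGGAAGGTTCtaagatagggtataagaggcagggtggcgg
HSP90AA1: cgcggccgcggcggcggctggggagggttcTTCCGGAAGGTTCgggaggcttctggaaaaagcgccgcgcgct
HSPD1: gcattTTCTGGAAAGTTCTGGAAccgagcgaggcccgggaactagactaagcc
CHORDC1: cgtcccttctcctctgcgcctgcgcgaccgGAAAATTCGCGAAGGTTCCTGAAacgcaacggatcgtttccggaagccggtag

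The capitals of CHORDC1 hold the longest run of the 4, at 23 bases, and they end 38 bases before its start site. In HSPA8 the capitals span 13 bases and end 43 bases before the start site. A match describes letters in the window and does not show that a factor binds there.

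Another 4 heat-inducible genes whose windows hold 8-letter forms but no run of 3 units are shown beside them, since their levels are described below. HSPA1A, HSPA1B and DNAJB4 hold 1 form each and DNAJB1 holds 2, of which the one nearer the start site is in capitals. HSPA1A lies at chr6:31815407-31815474 on the plus strand, HSPA1B at chr6:31827603-31827670 on the plus strand, DNAJB1 at chr19:14518407-14518474 on the minus strand and DNAJB4 at chr1:78004811-78004878 on the plus strand. The stretches of HSPA1A and HSPA1B are nearly the same letters around the same GAATATTC form, although the levels listed for them were far apart.
HSPA1A: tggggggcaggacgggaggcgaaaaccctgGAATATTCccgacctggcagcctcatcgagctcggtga
HSPA1B: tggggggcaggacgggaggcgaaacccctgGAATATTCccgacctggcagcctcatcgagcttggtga
DNAJB1: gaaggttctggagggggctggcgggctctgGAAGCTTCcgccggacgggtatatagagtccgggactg
DNAJB4: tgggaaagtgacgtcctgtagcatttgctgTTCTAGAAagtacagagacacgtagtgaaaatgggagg

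The libraries held about 48300000 to 58500000 recovered reads, and the table gives FPKM, fragments per kilobase of transcript scaled to library depth. All 10 markers of colonic epithelium had a mean of at least 1 FPKM and summed to 5125 to 6015 FPKM in the controls and 5306 to 6869 FPKM in the shock wave libraries. Of the other cell types, 6 of 8 listed fibroblast markers had rows, 3 reached a mean of 1 FPKM, and their sum was 11.2 to 26.6 FPKM in the controls and 4.83 to 15.97 FPKM after shock waves. Of the macrophage markers, 4 of 6 markers had rows and 2 reached 1 FPKM, with sums of 11.7 to 18.6 and 10.4 to 12.7 FPKM. No endothelial or erythroid marker reached a mean of 1 FPKM, and COL3A1, DCN and PTPRC stayed at or below 0.013, 0.0334 and 0.102 FPKM. Of the fibroblast markers COL1A1 had the highest mean, at 23.0, 5.78 and 8.24 FPKM in the controls and 1.32, 9.25 and 3.45 FPKM after shock waves. Of the macrophage markers CD68 had the highest mean, at 9.33 to 15.9 FPKM in the controls and 8.44 to 10.5 FPKM after shock waves. The tumours were xenografts and the reference build was human, so these sums do not measure the cells of the host. The part of the marker differences in the chaperone values was not tested.

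The chaperones were abundant RNAs, and their 40 values together made 1.00% to 1.16% of all annotated FPKM in each library. HSP90AB1, the constitutive cytosolic HSP90, was the highest of them in 5 of 6 libraries, at 694.9 to 771.2 FPKM. In shock wave library 2, HSPA8, the constitutive HSP70, was higher, at 755.5 FPKM. HSPD1, the mitochondrial chaperonin, and HSP90AA1, the inducible HSP90, followed together with HSPA8 in all libraries except control 2. At the low end, HSPA1A, an inducible HSP70, and HSPB8, a small heat shock protein, stayed below the filter of 1 FPKM in at least 3 libraries, which left 38 genes for testing. That filter uses all 6 libraries.

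**Figure D1:**
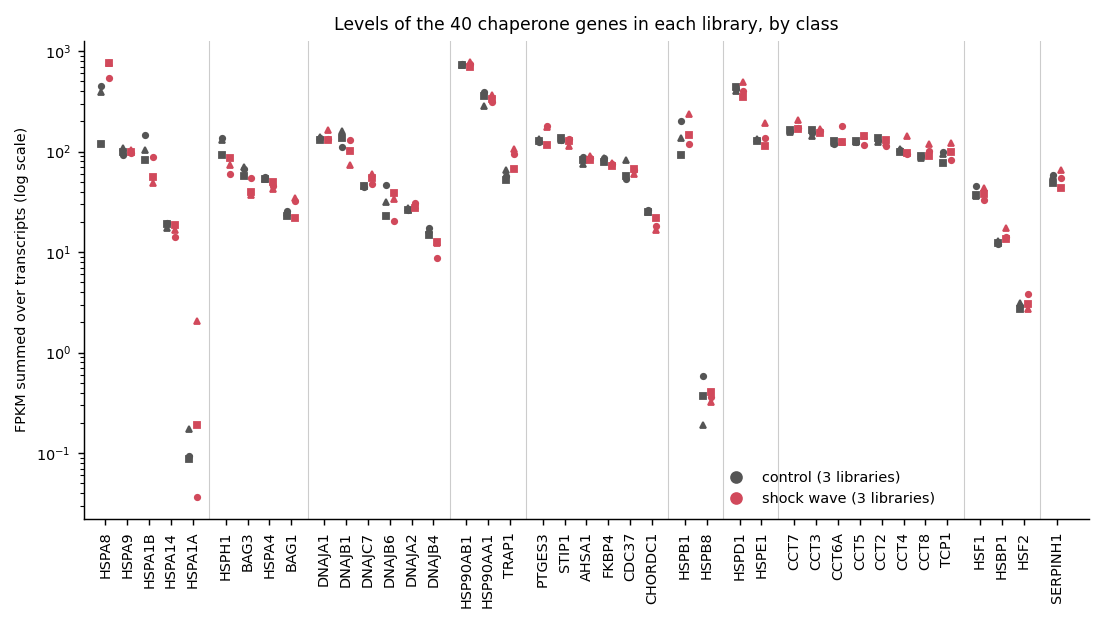
Level of each of the 40 chaperone genes in each library, as FPKM summed over transcripts on a log axis; grey marks controls, red marks shock wave libraries, and circle, square and triangle mark replicates 1, 2 and 3. HSP90AB1 sits between 694.9 and 771.2 FPKM in all libraries, while HSPA1A and HSPB8 lie near or below 1 FPKM.

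No chaperone gene passed the test between the groups. In limma on log2(FPKM + 1), fitted across 13448 genes with Benjamini-Hochberg adjustment, 0 of the 38 tested genes had an adjusted p under 0.05, and 0% of all genes did. The smallest adjusted p of a chaperone gene was 0.648, which is shared by many genes. At an unadjusted limma p under 0.05, 7 of 38 chaperone genes stood out (18.4%), against 6.93% of all genes tested. Of these 7, 5 were lower after shock waves (HSPH1, BAG3, CHORDC1, DNAJB4 and HSPA1B) and 2 were higher (HSPA8 and TRAP1). With limma-voom on the recovered reads, 0 were called and 7 had an unadjusted p under 0.05.

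Counted by overlap, 6 of 38 genes (15.8%) had all shock wave libraries below all controls, against 8.69% of all genes: HSPH1, HSPA4, BAG3, DNAJB4, FKBP4 and CHORDC1. The opposite order, with all shock wave libraries above all controls, was found for 6 genes (15.8%), against 7.75% of all genes: HSPA8, DNAJA2, DNAJC7, TRAP1, CCT7 and HSBP1. Both shares lie above the background, on few genes and with opposite signs. Since the genes were chosen with earlier results of these data known, such an excess cannot be read as independent support. The same holds for the share at an unadjusted p under 0.05. The median log2 difference of the 38 genes was 0.056, beside -0.014 for all genes, and 21 were positive and 17 negative. The sign of this median flips under other scalings, to -0.087 with quantile normalization and -0.060 when each library is scaled to the same sum. Of 8 tested genes on a list of classical heat-induced genes, HSPA1B, HSPH1, BAG3, DNAJB1, HSPD1 and HSP90AA1 had a negative and HSPB1 and HSPE1 a positive log2 difference, with a median of -0.23. The list leaves out DNAJB4 and CHORDC1, which are also heat-inducible and had negative log2 differences. Also left out were HSPA8, DNAJA1, SERPINH1, HSP90AB1 and DNAJB6, whose promoter windows hold a run of 3 units. Their log2 differences were 1.29, 0.081, -0.019, -0.0024 and -0.0998. The signs of HSPD1, HSP90AA1, HSPB1 and HSPE1 turned under some alternatives.

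**Figure D2:**
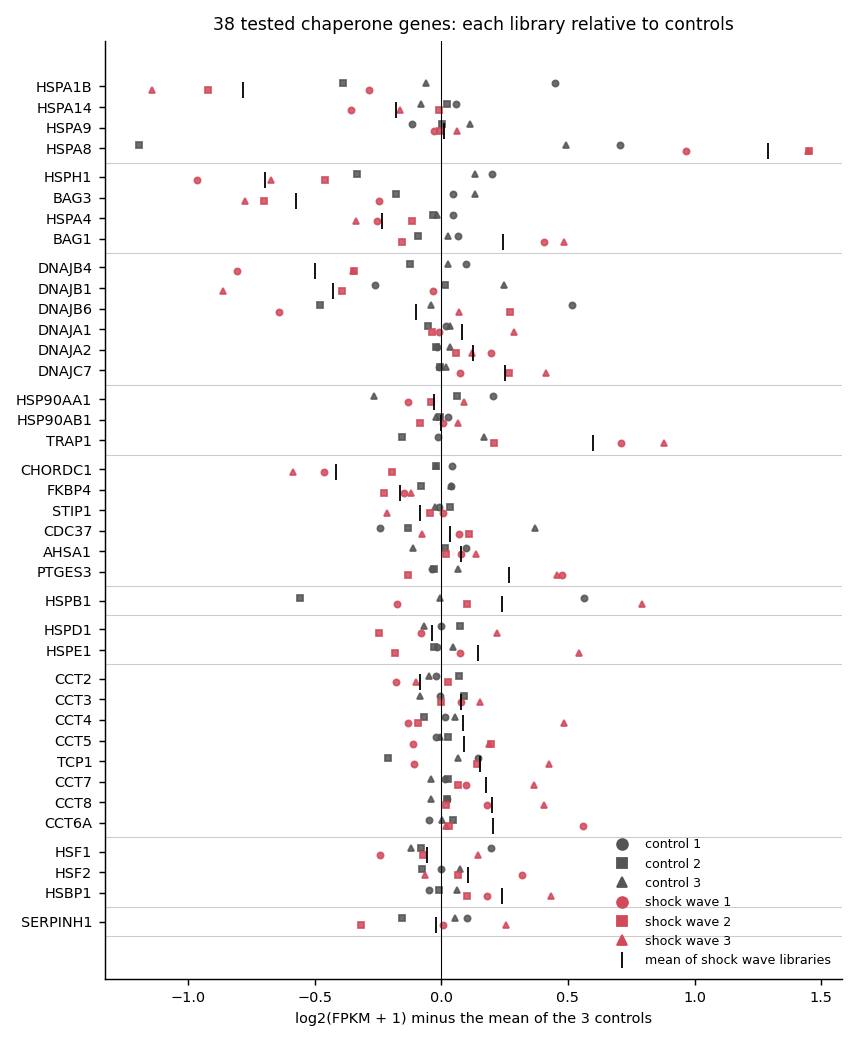
Difference of each library from the control mean for the 38 tested chaperone genes, on the log2(FPKM + 1) scale, by class; grey marks controls, red marks shock wave libraries, circle, square and triangle mark replicates 1, 2 and 3, and the black tick is the mean of the 3 shock wave libraries. HSPA1B and HSPH1 lie farthest to the left at means of -0.78 and -0.70, HSPA8 farthest to the right at 1.29, and the means of the TRiC subunits lie between -0.085 and 0.20.

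In the HSP70 family, the inducible HSPA1B and the constitutive HSPA8 had log2 differences of opposite sign. HSPA8 (chr11:123057489-123063230), the constitutive HSP70 that also removes clathrin coats, was at 449.8, 119.8 and 387.7 FPKM in controls 1 to 3 and at 540.0, 755.5 and 753.8 FPKM in shock wave libraries 1 to 3. All 3 shock wave libraries lay above all controls, and control 2 was far below the other controls. The means were 319 ± 175 and 683 ± 124 FPKM (SD, n = 3), and the log2 difference was 1.29 with a standard error of 0.49 (limma adjusted p = 0.648). Without control 2 the difference was 0.69 (limma adjusted p = 0.815, within 0.378 to 0.842 over the alternatives), so that 1 library carries much of its size. The standard error was then 0.22 and the unadjusted limma p was 0.0212, beside 0.0343 with all libraries. Over the 17 alternatives the unadjusted limma p of HSPA8 ran from 0.0155 to 0.0944 and was under 0.05 in 13. It was 0.0895 without shock wave library 2 and 0.0944 without shock wave library 3. In bulk tumours, a change in the number of cells of a type and a change in RNA per cell cannot be told apart.

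HSPA1B (chr6:31827735-31830255), an HSP70 that is strongly induced by heat, was at 147.9, 82.2 and 103.6 FPKM in the controls and at 88.4, 56.5 and 48.4 FPKM after shock waves. The groups overlapped, since shock wave library 1 lay above control 2. Means were 111 ± 33.5 and 64.4 ± 21.1 FPKM (SD, n = 3), a log2 difference of -0.78 with a standard error of 0.29 (limma adjusted p = 0.648). The ratio of HSPA8 to HSPA1B was therefore 3.04, 1.46 and 3.74 in the controls and 6.11, 13.4 and 15.6 after shock waves, with no overlap. Opposite signs of the 2 genes widen this ratio by construction, and HSPA8 alone already had no overlap. The ratio was not tested and is no separate result.

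HSPA1A (chr6:31815464-31817946) encodes nearly the same protein as HSPA1B, and it was listed near 0 in most libraries. It was at 0.0926, 0.0871 and 0.175 FPKM in the controls and at 0.0365, 0.190 and 2.08 FPKM after shock waves, from 5 to 303 recovered reads. Shock wave library 3 alone stood out, and the gene was below the filter and not tested. The longest open reading frames of the 2 transcripts share 1922 of 1926 bases (99.8%), while the whole transcripts share 91.4%, so most reads of one could have been placed on the other. Added together, the pair was at 148.0, 82.3 and 103.7 FPKM in the controls and at 88.4, 56.7 and 50.5 FPKM after shock waves, close to HSPA1B alone. The other HSP70 genes had overlapping groups. HSPA9, the mitochondrial HSP70, lay between 91.6 and 107.6 FPKM in all libraries, with a log2 difference of 0.0099. HSPA14, a ribosome-associated HSP70 whose symbol covers more than 1 gene ID here, was at 14.3 to 19.4 FPKM with a log2 difference of -0.18.

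Of the HSP110 and BAG proteins, which reset HSP70, 3 of 4 were lower in every shock wave library than in every control, an order that 8.69% of all genes showed. HSPH1 (chr13:31134974-31162388), the inducible HSP110 that releases ADP from HSP70 and helps dissolve aggregates, was at 136.2, 93.6 and 129.9 FPKM in the controls and at 60.2, 85.9 and 73.9 FPKM after shock waves. Every shock wave library was lower than every control, by a small margin between control 2 and shock wave library 2. Means were 119.9 ± 23.0 and 73.3 ± 12.9 FPKM (SD, n = 3), with a log2 difference of -0.70 and a standard error of 0.20 (limma adjusted p = 0.648). Its unadjusted limma p was 0.0101 and stayed under 0.05 in all 17 alternatives, at 0.00388 to 0.0390. HSPH1 is one of the genes with no 8-letter heat shock form in its window.

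BAG3 (chr10:119651370-119677819), a stress-induced HSP70 partner that passes clients to autophagy, was at 66.9, 57.0 and 71.0 FPKM in the controls and at 54.4, 39.4 and 37.4 FPKM after shock waves. No value of one group reached into the other. The means of 65.0 ± 7.18 and 43.7 ± 9.29 FPKM (SD, n = 3) gave a log2 difference of -0.57 with a standard error of 0.18 (limma adjusted p = 0.648). HSPA4, the constitutive HSP110, showed the same order at a smaller size, with 53.0 to 56.1 FPKM in the controls, 42.6 to 50.002 FPKM after shock waves and a log2 difference of -0.24, which was -0.090 with the length trend removed. BAG1, an exchange factor that links HSP70 to the proteasome, differed from the rest of its class, with a log2 difference of 0.24 and overlapping groups. Summed over these 4 genes, the class was at 284.6, 226.3 and 279.2 FPKM in the controls and at 192.3, 197.0 and 188.3 FPKM after shock waves, a mean 26.9% lower.

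**Figure D3:**
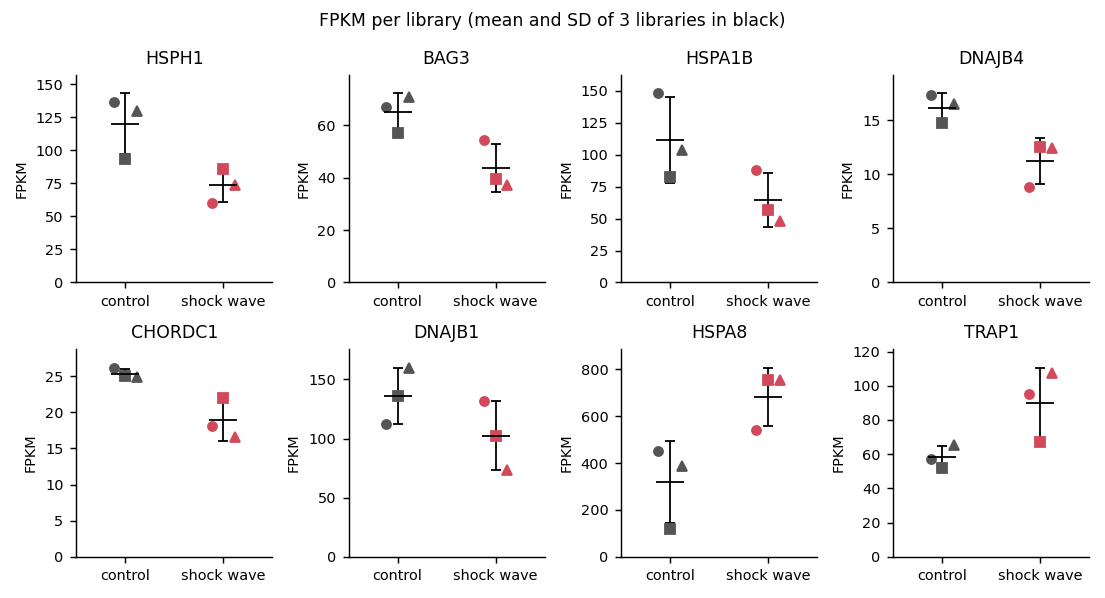
FPKM per library of the 8 chaperone genes with the leading differences or classical heat induction; grey marks controls, red marks shock wave libraries, circle, square and triangle mark replicates 1, 2 and 3, and black lines give the mean and SD of 3 libraries. HSPH1, BAG3, DNAJB4 and CHORDC1 are lower in every shock wave library, HSPA8 and TRAP1 are higher in every one, and HSPA1B and DNAJB1 overlap.

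The J-domain proteins, which deliver clients to HSP70 and trigger its ATP use, held both directions. DNAJB4 (chr1:77979175-78017964), a heat-inducible class B J-protein, was at 17.3, 14.7 and 16.4 FPKM in the controls and at 8.78, 12.5 and 12.5 FPKM after shock waves. The groups did not overlap, and the means of 16.2 ± 1.30 and 11.2 ± 2.13 FPKM (SD, n = 3) gave a log2 difference of -0.50 with a standard error of 0.18 (limma adjusted p = 0.648). DNAJB1 (chr19:14514770-14529770), the main inducible J-protein partner of HSP70, was at 112.0, 136.1 and 159.9 FPKM in the controls and at 131.4, 102.4 and 73.6 FPKM after shock waves. Here the groups overlapped, and the log2 difference of -0.43 with a standard error of 0.24 ranged from -0.63 to -0.21 when single libraries were left out, the smaller size without shock wave library 3.

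DNAJC7, a J-protein that shuttles clients between HSP70 and HSP90, was in the opposite order, at 44.9 to 45.8 FPKM in the controls and 47.6 to 60.5 FPKM after shock waves. DNAJA2, a constitutive J-protein, was also higher in every shock wave library, by a log2 difference of 0.13. DNAJA1, the most abundant J-protein here, lay at 130.3 to 138.5 FPKM in the controls and 131.9, 134.5 and 165.2 FPKM after shock waves, with overlap. DNAJB6, which keeps aggregation-prone proteins soluble, varied more within groups than between them, from 20.3 to 46.5 FPKM.

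Both cytosolic HSP90 genes had overlapping groups, and the mitochondrial one was higher in every shock wave library. HSP90AB1 (chr6:44246166-44253888) was at 749.5, 732.2 and 725.8 FPKM in the controls and at 739.6, 694.9 and 771.2 FPKM after shock waves. Its means were 735.8 ± 12.3 and 735.2 ± 38.3 FPKM (SD, n = 3), a log2 difference of -0.0024 (limma adjusted p = 0.995). HSP90AA1 (chr14:102080738-102139699), the form induced by heat, was at 394.9, 357.4 and 285.1 FPKM in the controls and at 312.4, 332.8 and 364.5 FPKM after shock waves. The groups overlapped, with a log2 difference of -0.029 (limma adjusted p = 0.955). The ratio of HSP90AB1 to HSP90AA1 stayed between 1.90 and 2.55 in all libraries.

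TRAP1 (chr16:3651639-3717597), the mitochondrial HSP90, which acts on the respiratory chain, was at 57.3, 51.8 and 65.2 FPKM in the controls and at 95.2, 66.9 and 107.3 FPKM after shock waves. Shock wave library 2 lay just above control 3, so the groups did not overlap. Means of 58.1 ± 6.75 and 89.8 ± 20.7 FPKM (SD, n = 3) gave a log2 difference of 0.60 with a standard error of 0.20 (limma adjusted p = 0.648). Its unadjusted limma p was 0.0198, and it was under 0.05 in 12 of 17 alternatives, at 0.00195 to 0.256. The largest came with the highest transcript alone, at a log2 difference of 0.44. The same count was 16 for BAG3, 13 for HSPA1B, 13 for DNAJB4 and 12 for CHORDC1.

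Among the HSP90 co-chaperones, CHORDC1 (chr11:90201160-90223364), a heat-inducible partner of the HSP90 ATP-binding domain, was at 26.2, 25.002 and 24.97 FPKM in the controls. After shock waves it was at 18.1, 22.0 and 16.6 FPKM, below every control. Means of 25.4 ± 0.693 and 18.9 ± 2.82 FPKM (SD, n = 3) gave a log2 difference of -0.42 with a standard error of 0.14 (limma adjusted p = 0.648). With its highest transcript alone the difference was -0.17 and its unadjusted limma p was above 0.05. Its promoter window holds the long run of alternating units printed above. FKBP4, a peptidyl-prolyl isomerase found in steroid receptor complexes, was at 79.4 to 86.3 FPKM in the controls and 71.6 to 77.2 FPKM after shock waves, a log2 difference of -0.16, which was -0.071 with the length trend removed.

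The highest co-chaperone by mean was PTGES3, known as p23, which holds HSP90 in its closed state. It was at 125.4, 126.3 and 134.7 FPKM in the controls and at 179.7, 117.3 and 176.9 FPKM after shock waves. Shock wave library 2 lay below all controls and the other shock wave libraries above them (log2 difference 0.27, limma adjusted p = 0.660). STIP1, which ties HSP70 to HSP90, AHSA1, an activator of the HSP90 ATPase, and CDC37, which loads kinases, had log2 differences of -0.084, 0.077 and 0.035, all with overlap.

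The small heat shock protein HSPB1 (chr7:76302544-76304295), a stress-induced holdase, was spread widely in both groups. It was at 202.0, 92.2 and 135.6 FPKM in the controls and at 120.4, 146.3 and 236.3 FPKM after shock waves, with overlap and a log2 difference of 0.24 (limma adjusted p = 0.807). HSPB8, which works with BAG3, was at 0.192 to 0.581 FPKM and was not tested.

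Both subunits of the mitochondrial chaperonin had overlapping groups. HSPD1 (chr2:197486581-197516737), the HSP60 ring, was at 418.5, 441.2 and 399.7 FPKM in the controls and at 396.9, 353.2 and 488.1 FPKM after shock waves. The lowest and the highest values were both shock wave libraries (log2 difference -0.036, limma adjusted p = 0.941). HSPE1 (chr2:197499994-197503457), the HSP10 lid, was at 129.4, 128.3 and 135.1 FPKM in the controls and at 137.8, 115.0 and 191.3 FPKM after shock waves, again with overlap (log2 difference 0.14, limma adjusted p = 0.789). The genes lie on opposite strands and their spans overlap in the table, so without strand information reads of the shared stretch cannot be told apart. The ratio of HSPD1 to HSPE1 was 2.55 to 3.44.

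The cytosolic chaperonin TRiC, a ring of 8 different subunits that folds actin and tubulin, showed small positive differences in 7 of its 8 genes. None had an unadjusted p under 0.05, and CCT3, CCT4, CCT5 and CCT7 turned negative with quantile normalization, as did CCT3, CCT4 and CCT5 with libraries scaled to the same sum. CCT7, the highest subunit by mean, was at 161.1, 162.5 and 155.3 FPKM in the controls and at 171.0, 167.1 and 206.2 FPKM after shock waves, without overlap (log2 difference 0.18). CCT8, with the smallest p of the ring, was at 90.7, 90.7 and 86.8 FPKM in the controls and at 101.3, 90.6 and 118.6 FPKM after shock waves, with overlap (log2 difference 0.20). Without shock wave library 3 the log2 difference was 0.082 for CCT7, 0.099 for CCT8 and 0.017 for TCP1, and CCT4 turned to -0.11.

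The ring subunits are needed in equal numbers in the protein, and per length their RNA levels were similar but not equal. The highest subunit exceeded the lowest by 1.74 to 2.18 times within a library. CCT2 had the single negative log2 difference, -0.085. CCT6A was at 181.6 FPKM in shock wave library 1 and at 118.9 to 127.0 FPKM in all other libraries. TCP1, CCT3, CCT4 and CCT5 had log2 differences of 0.15, 0.077, 0.086 and 0.091. The class summed to 977.3, 981.9 and 960.2 FPKM in the controls and to 1022, 1007 and 1148 FPKM after shock waves, a mean 8.85% higher, and this log2 ratio of 0.12 went to 0.0034 with libraries scaled to the same sum.

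**Figure D4:**
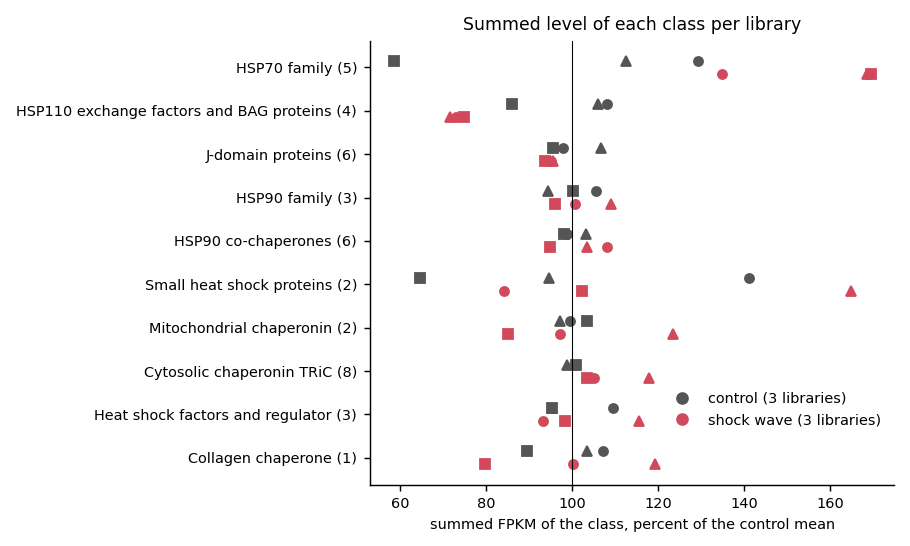
Summed FPKM of each chaperone class per library, as a percent of the mean of the 3 controls, with the number of genes in parentheses; grey marks controls, red marks shock wave libraries, and circle, square and triangle mark replicates 1, 2 and 3. The HSP110 and BAG class lies below the controls in all 3 shock wave libraries with a mean 26.9% lower. The J-domain class lies barely below them, at 375.2 to 419.2 FPKM in the controls and 368.25 to 374.8 FPKM after shock waves. The HSP70 class and TRiC lie above the controls, and the HSP90 class overlaps. Within the HSP70 class, HSPA8 had group means of 319 and 683 FPKM, while HSPA1B and HSPA14 had negative log2 differences. Within the J-domain class, DNAJB1 had group means of 136.0 and 102.5 FPKM, while 3 of 6 genes had positive log2 differences. Within the HSP110 and BAG class, HSPH1 had group means of 119.9 and 73.3 FPKM, while BAG1 had a positive log2 difference.

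The transcription factor HSF1, which drives the heat shock response, was at 45.4, 37.3 and 36.3 FPKM in the controls and at 33.2, 37.5 and 43.8 FPKM after shock waves, with overlap and a log2 difference of -0.056. HSF2, a related factor, was low at 2.70 to 3.85 FPKM. HSBP1, a small protein that binds HSF1 and restrains it, was at 12.02, 12.4 and 13.1 FPKM in the controls and at 14.3, 13.5 and 17.2 FPKM after shock waves, higher in each library with a log2 difference of 0.24, or 0.14 without shock wave library 3. SERPINH1, also called HSP47, is a collagen chaperone of the endoplasmic reticulum and so stands outside the compartments of the other genes. It was at 59.1, 49.3 and 57.1 FPKM in the controls and at 55.2, 43.9 and 65.8 FPKM after shock waves, with overlap (log2 difference -0.019, limma adjusted p = 0.972).

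Heat shock forms stood in promoter windows of genes on both sides of this order. Of the 6 genes lower in every shock wave library, 5 had a window and 2 of those held an 8-letter form, DNAJB4 and CHORDC1. Of the 6 higher in every shock wave library, all had a window and 1 held a form, HSPA8. Among the 26 genes with overlapping groups, 14 of 23 windows held one. HSPA8 and CHORDC1, with 3 or more alternating units each, lay on opposite sides.

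The shock wave libraries differed more among themselves than the controls did. The median coefficient of variation over the 38 genes was 5.52% in the controls and 14.4% after shock waves, and 28 of 38 genes (73.7%) had the larger one after shock waves. Over all genes tested these medians were 14.2% and 22.8%, and 68.0% of genes had the larger one after shock waves. Shock wave library 3 held the highest value of 16 chaperone genes (42.1%) and the lowest of 6 (15.8%), against 24.96% and 35.2% of all genes. That library also stood apart in its relation of level to transcript length over all genes, with a slope of -0.18 log2 units per doubling of length, beside 0.055 to 0.068 in the controls and -0.050 and 0.037 in the other shock wave libraries. The part of this slope in the spread was not tested.

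The table lists transcripts, so the share of each isoform could be followed. Of the 330 chaperone transcripts, 155 passed the filter. In limma over 28517 transcripts, 1 of the 155 was called higher, against 0.0771% of all transcripts, and 0 were called lower, against 0.126% of all. At an unadjusted limma p under 0.05 there were 16 of the 155, beside 1876 of the 28517 transcripts. The called transcript, ENST00000528990 of SERPINH1 (587 bases, chr11:75562827-75566844), was listed at 0 in all controls and was at 2.87, 2.47 and 4.07 FPKM after shock waves. It made 5.20% to 6.20% of the gene's level there. It passed the filter only through the shock wave libraries and so had to differ, and its limma adjusted p of 0.0478 was between 0.0734 and 0.220 when single libraries were left out and 0.415 with a replicate block, the highest of its alternatives.

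The same transcript was the highest in every library for 29 genes, while 11 genes had more than 1. The largest shift in share was in HSF1, whose transcript ENST00000528838 made 72.0%, 79.8% and 43.0% of the gene in the controls and 26.9%, 36.3% and 20.4% after shock waves. Its level was 32.7, 29.8 and 15.6 FPKM in the controls and 8.94, 13.6 and 8.92 FPKM after shock waves, without overlap (log2 difference -1.19, limma adjusted p = 0.630). The gene sum of HSF1 did not show this order, since other transcripts made up the rest.

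Other exchanges, in HSP90AA1 and CCT3, followed single libraries and not the groups. In HSP90AA1, ENST00000334701 was at 352.8 FPKM in control 1 and at or below 1.82 FPKM elsewhere, while ENST00000216281 was at 16.8 FPKM in control 1 and at 274.1 to 352.9 FPKM elsewhere. In CCT3, ENST00000472765 was at 113.8, 122.3 and 0.123 FPKM in the controls and at 0.146, 120.9 and 0.0368 FPKM after shock waves. ENST00000295688 of CCT3 took the opposite course, at 126.2, 147.9 and 165.1 FPKM in the 3 libraries where the first was nearly missing. In CDC37, ENST00000222005 was at 38.6, 50.4 and 25.5 FPKM in the controls and at 58.3, 60.4 and 53.5 FPKM after shock waves, without overlap. With this transcript in place of the gene sum the log2 difference was 0.63 (limma adjusted p = 0.707), beside 0.035 for the sum. A retained-intron transcript of CDC37, ENST00000591248, reached 52.5 FPKM in control 3 alone. These transcripts share most of their sequence, so how reads were divided among them bears on every such value, while the gene sums ranged only from 285.1 to 394.9 FPKM for HSP90AA1 and from 143.6 to 169.2 FPKM for CCT3.

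**Figure D5:**
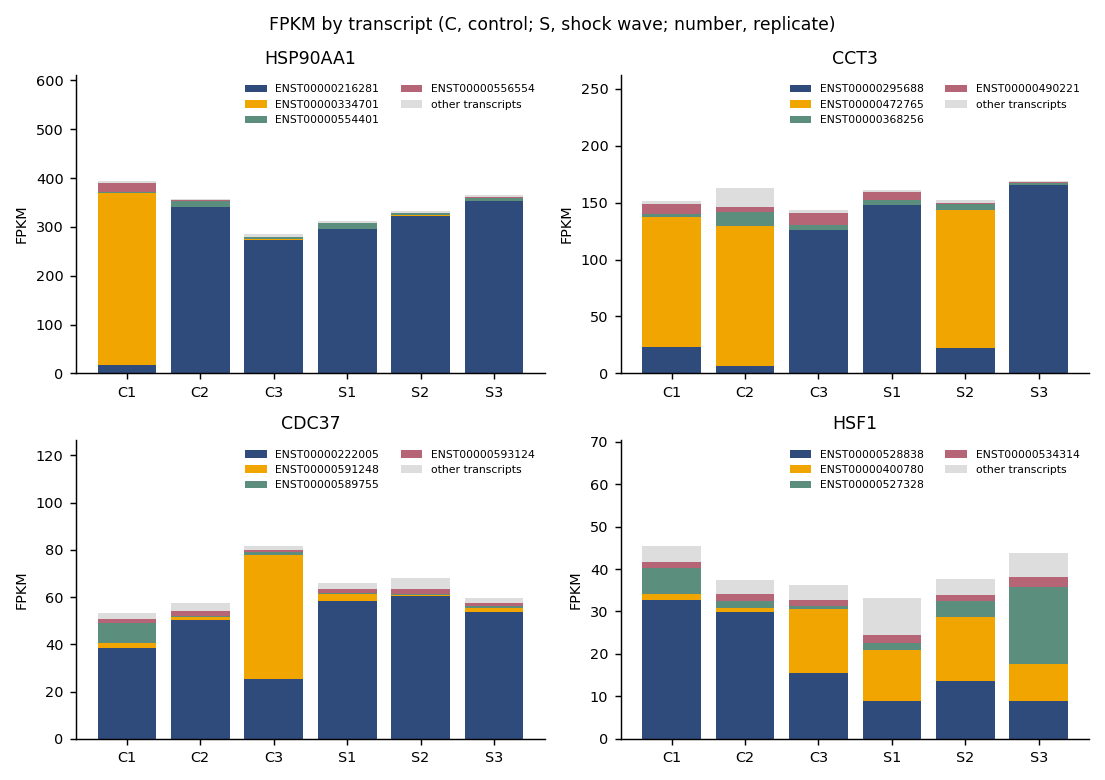
FPKM of the leading transcripts of HSP90AA1, CCT3, CDC37 and HSF1 in each library, stacked to the gene sum; C marks controls, S shock wave libraries, and the number is the replicate. HSP90AA1 changes its leading transcript only in control 1 of the 6 libraries, CCT3 in controls 1 and 2 and shock wave library 2, and ENST00000528838 of HSF1 is lower in all shock wave libraries.

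The wider chaperone network gave the same absence of calls. Of 57 listed genes, 56 had rows and 52 were tested, with 0 called by limma and 4 at an unadjusted p under 0.05 (7.69%), near the 6.93% of all genes. Of the 52, 32 were positive and 20 negative, with a median log2 difference of 0.058. HSPA4L, a further HSP110 and so a relative of HSPH1, was at 9.94, 8.67 and 8.77 FPKM in the controls and at 5.45, 6.14 and 4.57 FPKM after shock waves, without overlap and with a log2 difference of -0.67, or -0.38 with the length trend removed. HSPA6, an HSP70 that is expressed mainly under strong stress, was at 18.3, 10.4 and 22.4 FPKM in the controls and at 11.9, 3.82 and 8.53 FPKM after shock waves, with overlap and a log2 difference of -1.04, or -0.64 without shock wave library 2.

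Prefoldin hands actin and tubulin chains to TRiC, and 2 of its subunits were among the 4. PFDN6 was at 24.9, 17.5 and 21.5 FPKM in the controls and at 30.7, 28.1 and 49.0 FPKM after shock waves, without overlap (log2 difference 0.70, or 0.46 without shock wave library 3). PFDN2 was at 64.4, 60.2 and 90.5 FPKM in the controls and at 101.4, 90.6 and 114.4 FPKM after shock waves (log2 difference 0.52), with control 3 almost equal to shock wave library 2. Its difference was 0.28 with the length trend removed and 0.078 with its highest transcript alone, both with an unadjusted limma p above 0.05. GRPEL1, the exchange factor of mitochondrial HSP70, and FKBP8, a mitochondrial HSP90 partner, had log2 differences of 0.30 and 0.33, the latter 0.17 without shock wave library 3. BAG2, an inhibitor of client ubiquitination, stayed at 6.21 to 7.47 FPKM. FKBP5, a glucocorticoid-induced HSP90 partner, was at 9.82 to 14.7 FPKM in the controls and 7.03 to 12.9 FPKM after shock waves, and the small heat shock protein CRYAB did not exceed 0.209 FPKM.

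Over the 6 libraries and 6357 genes with a mean of at least 10 FPKM, the genes most like HSP90AA1 in Pearson correlation of log2 levels were ZDHHC16 (0.96), UACA (0.95) and RTF2 (0.94). These are descriptions of 6 libraries that differ in read depth and in their relation of level to transcript length.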

How the data were processed

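RNA libraries of HT-29 xenografts were sequenced, 3 in the control and 3 in the shock wave group. The authors deposited a transcript table whose values are FPKM, made by dividing reads by transcript length and library depth. That unit was inferred, since value times annotated length gave whole reads within 0.05 reads for 99.6% to 99.7% of values. The submitters' processing notes name the build hg38. Aligner and counter: not given in the sources used here. Of 131516 rows, 116485 were annotated transcripts, and 15031 assembled transcripts without a gene name were not used, so chaperone reads placed on those cannot be seen. FPKM was summed per symbol. Genes or transcripts that reached 1 FPKM in 3 or more of the 6 libraries were tested as log2(FPKM + 1), a scale that understates the differences of low genes, with limma 3.58.1 in R 4.3.3 using a mean-variance trend and Benjamini-Hochberg adjustment over all of them at a threshold of 0.05. The fit was tested on simulated data. Genes named in full were, in each class, the highest by mean, the smallest by p, and the classical heat-inducible ones. The members and lists were chosen with earlier results of these data known. Alternatives covered pseudocount, filter, scaling, trend, replicate block, isoform choice, recovered reads, length and each library left out. Protein sequence features were not analysed here.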

Additional observations from a re-analysis of the deposited data

How the results depend on the processing

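No chaperone gene was called by limma under any of the 17 alternatives, and 3 to 9 had an unadjusted p under 0.05. The count over all genes moved as well. As reported, 7 chaperone genes stood beside 932 of 13448 genes, and with quantile normalization 9 beside 986. Without control 1 there were 3 beside 565, and without control 3 there were 3 beside 610. Without shock wave library 2 there were 8 beside 1943. Of the 38 genes, 17 kept the sign of their log2 difference in all alternatives run for them, and 588 of 645 gene values did. Depth was about 48300000 to 58500000 reads, and HSPA1A rests on 5 to 303 of them. The count of called chaperone transcripts, 1, became 0 with a pseudocount of 0.1, with quantile normalization and with a replicate block, and was 0 to 0 over the left-out libraries; the cause was not tested. Same-numbered libraries did not deviate together over all genes (correlations of -0.01, -0.01 and 0.03). These values cannot show whether the numbers pair the libraries. With the replicate block, 0 chaperone genes were called and 6 had an unadjusted p under 0.05, beside 963 of all genes. The median log2 difference of the chaperone genes, 0.056, was -0.087 with quantile normalization and -0.060 with libraries scaled to the same sum, which moves the median of all genes to -0.11, and -0.029 to 0.088 with single libraries left out. With quantile normalization 26 of 38 genes were negative, with same-sum scaling 24, and without shock wave library 3, 22, against 17 as reported. Over all genes, 0 were called as reported, 9 with the highest transcript in place of the gene sum, 2 with limma-voom on recovered reads, 5 without shock wave library 2 and 1 without shock wave library 3. With same-sum scaling the log2 ratio of the class sum was -0.19 for J-domain proteins, -0.091 for the HSP90 family, -0.085 for HSP90 co-chaperones and 0.0034 for TRiC.

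For 21 genes the sign turned under at least 1 alternative, and the cause was not tested. With quantile normalization the log2 difference was -0.12 for HSPA9, -0.083 for DNAJA1, -0.044 for AHSA1, -0.044 for CDC37, -0.012 for HSPE1, -0.11 for CCT3, -0.069 for CCT4, -0.065 for CCT5 and -0.020 for CCT7. With same-sum scaling it was -0.11 for HSPA9, -0.034 for DNAJA1, -0.038 for AHSA1, -0.080 for CDC37, -0.039 for CCT3, -0.029 for CCT4 and -0.025 for CCT5. With the highest transcript in place of the gene sum it was 0.16 for HSPA14, -0.0021 for DNAJA2, 1.45 for HSP90AA1, 0.15 for STIP1, -0.049 for AHSA1, -0.016 for PTGES3, 0.035 for HSPD1, 0.062 for CCT2 and 0.50 for SERPINH1. With the length trend removed it was 0.050 for HSP90AA1, 0.030 for HSP90AB1, -0.033 for AHSA1, -0.032 for CDC37, -0.013 for HSPE1 and 0.014 for SERPINH1. With limma-voom on recovered reads it was 0.043 for HSPD1 and 0.047 for CCT2. Over the left-out libraries it ranged from -0.048 to 0.067 for HSPA9, -0.022 to 0.14 for DNAJA1, -0.34 to 0.17 for DNAJB6, -0.16 to 0.073 for HSP90AA1, -0.037 to 0.038 for HSP90AB1, -0.086 to 0.22 for CDC37, -0.040 to 0.52 for HSPB1, -0.16 to 0.069 for HSPD1, -0.056 to 0.31 for HSPE1, -0.11 to 0.20 for CCT4, -0.16 to 0.043 for HSF1 and -0.16 to 0.13 for SERPINH1.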
